A study of Mus musculus with 6 samples.

Results

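Among the gonad somatic cells made from mouse embryonic stem (ES) cells and collected on culture day 6 (Induced D6), 1430 of 7519 kept barcodes carried transcripts of the stromal genes Nr2f2 and Tcf21 or Pdgfra. A barcode stands for 1 droplet, and a UMI (unique molecular identifier) for 1 captured transcript. Barcodes were kept when no fewer than 500 genes were detected and mitochondrial genes gave at most 10% of the UMIs. It was a member with at least 2 UMIs of Nr2f2, at least 1 UMI of Tcf21 or Pdgfra, and 0 UMIs of both Upk3b, a mesothelial marker, and Foxl2, a marker of pregranulosa cells. The members were set against the other 6089 kept Induced D6 barcodes, and beside 661 barcodes of the E11.5 gonad and 461 of the E13.5 gonad chosen by the same rule. Because these transcript counts chose the members, the levels of the 5 rule genes are given as a description.

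The ES cells were of 129svj x C57BL/6J background and were grown as aggregates through 3 steps of 2 days each. The first step held CHIR, a GSK3 inhibitor that activates Wnt signalling, with BMP4 and EGF. BMP4 and EGF stayed in the second step beside retinoic acid, SHH (Sonic hedgehog) and PD0325901, a MEK inhibitor, while FGF9 and BMP4 made up the third. The E11.5 and E13.5 groups were XX gonads of ICR mouse embryos with no treatment, and E10.5, E12.5 and E14.5 gonads were also sequenced. All tissues and aggregates were dissociated with papain and run on the 10x Chromium droplet platform, which reads the 3′ ends of transcripts. Each group was 1 library, so no difference between groups could be tested against replicates, and every interval given is a 95% interval for counting error alone. Strain, culture and library cannot be told apart in a comparison of Induced D6 with a gonad, and the number of embryos pooled is not given in the sources used here.

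Nr2f2 (COUP-TFII) is a nuclear receptor of mesenchymal cells in many organs. In the developing gonad it marks the interstitial, or stromal, compartment, which lies outside the supporting cells and later gives rise to steroid-producing, perivascular and matrix-producing cells. Tcf21 is a basic helix-loop-helix factor of the same mesenchyme, needed in the mouse for normal gonad formation, and Pdgfra encodes the receptor through which PDGF ligands from neighbouring epithelial and supporting cells act on stromal progenitors. Stromal cells of this kind build the fibrillar collagen and proteoglycan matrix around the cords and respond to Hedgehog, Wnt and retinoid signals.

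The Induced D6 members had a median of 6307 UMIs and 2439 genes per barcode, against 6284 UMIs and 2424 genes in the other Induced D6 barcodes. Barcodes that met the rule were deeper in vivo, with medians of 10501 UMIs at E11.5 and 7297 UMIs at E13.5. The Induced D6 library held 50585914 UMIs and shared between 30 and 72 barcode sequences with each of the other libraries, of which members accounted for 8 to 13. RNA of other cell types was scarce in the Induced D6 members for blood: the 9 erythroid markers summed to 0.411 CPM (UMIs of a gene per 1000000 UMIs in the sum), with 6 of 9 at 0, against 3162 CPM in the E11.5 and 300.3 CPM in the E13.5 members. Germ cell markers summed to 8.42 CPM in the Induced D6 members, 46.0 CPM in the E11.5 members and 219 CPM in the E13.5 members, where 22 of 461 barcodes carried at least 3 such markers. Scrublet, a doublet caller, set 3.84% of Induced D6, 0.404% of E11.5 and 1.88% of E13.5 barcodes past its automatic threshold, too few to rely on at E11.5. The highest scores were therefore marked at a preset rate that grows with the number of kept barcodes, which took in 117 of the Induced D6 members (8.18%), 22 of the E11.5 and 27 of the E13.5 members. The main values keep these barcodes.

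The rule genes themselves were spread widely over the Induced D6 library. Nr2f2 was seen with at least 1 UMI in 5378 barcodes (71.5%) and with at least 2 in 3373 (44.9%). A Tcf21 or Pdgfra UMI stood beside 2 or more Nr2f2 UMIs in 2061 barcodes (27.4%), of which 610 held Upk3b and 26 held Foxl2, a few of them both, and were dropped. Of the 1430 members, 829 held Tcf21 without Pdgfra, 215 held Pdgfra without Tcf21, and 386 held both. In the E11.5 members both partners were seen together in 337 of 661 barcodes, and in the E13.5 members in 214 of 461.

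Summed over barcodes, Nr2f2 stood at 534 CPM in the Induced D6 members, 207 CPM in the other Induced D6 barcodes, 409 CPM in the E11.5 and 478 CPM in the E13.5 members. Tcf21 stood at 304 CPM in the Induced D6 members and 126 CPM in the other Induced D6 barcodes, with 212 CPM at E11.5 and 304 CPM at E13.5. Pdgfra stood at 83.1 CPM in the Induced D6 members and 18.8 CPM in the other Induced D6 barcodes, with 93.8 CPM at E11.5 and 121 CPM at E13.5. A median Induced D6 member held 3 UMIs of Nr2f2, 2 of Tcf21 and 0 of Pdgfra, with highest values of 17, 13 and 5, while the median member held 1 Pdgfra UMI at both gonad stages.

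The share of barcodes that met the rule depended on depth. As deposited it was 19.02% in Induced D6 (18.1 to 19.9%), 24.3% at E11.5 (22.7 to 25.96%) and 10.1% at E13.5 (9.24 to 11.01%). When every barcode was thinned at random to 3000 UMIs and shallower ones (166, 40 and 123) were left out, the shares were 7.86% of 7353 in Induced D6 (7.26 to 8.50%), 6.98% of 2680 at E11.5 (6.04 to 8.01%) and 4.12% of 4443 at E13.5 (3.55 to 4.75%). The order of Induced D6 and E11.5 was thus turned round by equal depth, and their intervals then overlapped. Free RNA was gauged from cell types that should lack Nr2f2 and Tcf21. Of 14 megakaryocyte-marker barcodes in Induced D6, 2 held an Nr2f2 UMI (14.3%, 1.78 to 42.8%, median depth 10310 UMIs) and none did after thinning. A Tcf21 UMI was held by 1 of these 14, as deposited and thinned. Fewer barcodes carried pluripotency or germ cell markers in Induced D6: Nr2f2 was seen in 2 and Tcf21 in 4 of 8 pluripotent-marker barcodes, and Nr2f2 in 1 and Tcf21 in 3 of 4 germ-marker barcodes, with none of either after thinning. Members by the rule were 2 of those 8 and 1 of those 4, so their Nr2f2 UMIs cannot gauge free RNA. In the gonads, 2.34% of germ-marker barcodes held an Nr2f2 UMI at E11.5 and 3.54% at E13.5 after thinning. Among macrophage-marker barcodes, 1 of 21 at E11.5 (4.76%) and 3 of 16 at E13.5 (18.75%) held one after thinning, against 3 of 23 and 6 of 20 as deposited. As deposited, 7 of the germ-marker barcodes at E11.5 and 22 at E13.5 were members. The members hold Nr2f2 by the rule, so no share of theirs is set against these.

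**Figure D1:**
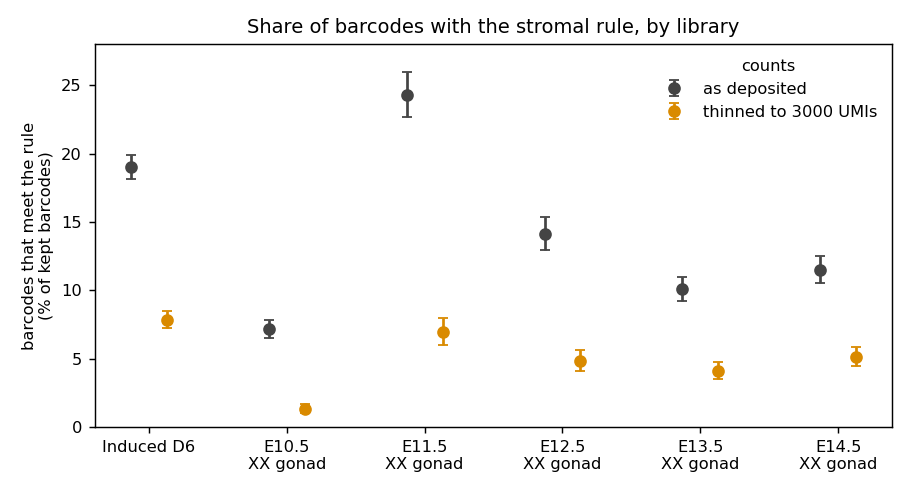
Share of kept barcodes that met the Nr2f2 and Tcf21 or Pdgfra rule in each library, as deposited and after thinning each barcode to 3000 UMIs; bars on the points are exact 95% intervals for counting error. Induced D6 had 19.02% as deposited and 7.86% after thinning, when all 6 libraries lay under 10%.

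The genomic loci of these genes are given on GRCm38 from the GENCODE vM21 annotation. Nr2f2 lies on the minus strand at chr7:70351944-70366735, Tcf21 on the minus strand at chr10:22817281-22820174, and Pdgfra on the plus strand at chr5:75152292-75198215.

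Barcodes on both sides of the Nr2f2 threshold were alike in matrix genes. The 527 members with exactly 2 Nr2f2 UMIs held Col1a1, the fibrillar collagen I chain, at 276.5 CPM, the 680 barcodes that failed only by having 1 Nr2f2 UMI at 247 CPM. Dcn (decorin, a small matrix proteoglycan) stood at 482 CPM inside and 435 CPM outside, and Itga8, an integrin chain, at 52.0 CPM inside and 47.6 CPM outside. The 1022 barcodes with at least 2 Nr2f2 UMIs and no partner transcript had less Col1a1 (159 CPM) and more Pax8 (107 CPM), a nephric and Müllerian duct factor, and Wnt6 (119 CPM). The 610 barcodes dropped for Upk3b held the keratin Krt19 at 567 CPM, Col1a1 at 76.1 CPM and the proteoglycan Lum (lumican) at 14.9 CPM.

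Beyond the rule genes, the genes that passed 2-fold between the Induced D6 members and the other Induced D6 barcodes included matrix genes such as Col1a1 and Dcn on the higher side and Wnt6 and Pax8 on the lower side. Among 8199 genes with a mean of at least 10 CPM over both sums, the members exceeded the others by 2-fold or more in 109 (1.33%) and fell short by as much in 90 (1.1%). The median log2 ratio of all these genes was 0.01. Among genes with at least 50 CPM in either sum, Itga8 had the widest ratio in the higher direction. It stood at 56.4 CPM in the members and 16.9 CPM in the other barcodes, 3.34-fold higher (2.98 to 3.74). Dnm3os, the noncoding RNA that hosts fibroblast microRNAs, stood at 51.1 CPM in the members and 15.8 CPM in the others, 3.23-fold higher. Next in this order, among genes at 50 CPM or more, were Col1a1, Fam212a, Mfap4 (a microfibril protein), Lpar1 (a lysophosphatidic acid receptor), Tmem45a, Osr1, Lum and Lhfp, between 2.46-fold and 2.91-fold higher.

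Of 26 measured genes of fibrillar collagen and interstitial matrix, 21 had a mean of at least 10 CPM. Of these 21, 10 were at least 2-fold higher and none lower, with a list median of 0.87 on the log2 scale. Col1a1 stood at 304.5 CPM in the members and 104.5 CPM in the other Induced D6 barcodes, 2.91-fold higher (2.78 to 3.05). Dcn stood at 458 CPM in the members and 213 CPM in the others, 2.15-fold higher (2.07 to 2.23). Lum stood at 119 CPM in the members and 47.8 CPM in the others. The collagens Col14a1 (3.52-fold) and Col6a3 (3.02-fold) had wider ratios at lower levels, 21.6 CPM and 45.4 CPM in the members. Without the exclusion of Upk3b and Foxl2 barcodes the log2 ratio of Dcn was 0.73 and that of Lum 0.61, both under 2-fold. Basement membrane genes, which surround epithelia and cords, had none of 10 past 2-fold in either direction. A Col1a1 UMI was found in 60.9% of the members and 26.1% of the other Induced D6 barcodes, or in 45.9% and 18.6% at equal depth, whereas 1 of the 14 megakaryocyte-marker barcodes (7.14%) held one. Col1a1 lies on the plus strand at chr11:94936224-94953042, Dcn on the plus strand at chr10:97479609-97518143 and Itga8 on the minus strand at chr2:12106632-12301922.

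Among transcription factors the picture was smaller. Of 14 stromal regulators 3 were at least 2-fold higher and none lower (list median 0.54). Osr1, an early factor of intermediate mesoderm and kidney stroma, stood at 99.3 CPM in the members and 39.2 CPM in the others. Nr2f1, the closest relative of Nr2f2, stood at 58.4 CPM in the members and 45.6 CPM in the others, short of the 2-fold mark. Without the exclusion of Upk3b and Foxl2 barcodes Osr1 and Snai2 were also short of it, at log2 ratios of 0.62 and 0.69. Of 10 genes of the epithelial-to-mesenchymal transition 3 were higher, namely Twist1 (25.9 against 10.3 CPM), Twist2 (31.4 against 11.3 CPM) and Snai2 (207 against 100.1 CPM, members first), all repressors of epithelial genes or regulators of mesenchyme. None of 10 gonadal transcription factors passed 2-fold: the Wilms tumour factor Wt1 stood at 719.5 CPM in the members and 752 CPM in the others, Gata4 at 102 and 134 CPM, Nr5a1 at 42.8 and 65.1 CPM, and Lhx9 at 59.2 and 67.3 CPM, in the same order. Among the groups of members described below, Gata4 ran from 21.8 to 147 CPM and Lhx9 from 7.44 to 124 CPM. Both were lowest in the groups of 385 and 269 barcodes, which had the most Col1a1.

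Signalling genes moved in both directions. Of 10 chemokines and guidance cues 4 were higher: the chemokine Cxcl12 stood at 53.8 CPM in the members and 25.7 CPM in the others, and the guidance ligand Slit2 (109.6 against 52.3 CPM), its receptor Robo2 (50.1 against 22.6 CPM) and the semaphorin Sema3d (20.1 against 7.25 CPM) were the other three. Of 15 Wnt pathway genes 3 were higher and 3 lower. The secreted Wnt inhibitors Sfrp1 (345 against 169 CPM) and Sfrp2 (62.7 against 25.98 CPM) were higher, the noncanonical ligand Wnt5a stood at 121 against 63.7 CPM and did not pass, and the epithelial ligand Wnt6 was 5.28-fold lower (4.61 to 6.07), at 22.6 CPM in the members and 119 CPM in the others. In the PDGF list the receptor Pdgfrb was 2.40-fold higher (30.6 CPM in the members, 12.7 CPM in the others) and the ligand Pdgfa 2.22-fold lower (16.3 CPM in the members, 36.3 CPM in the others). The receptor Fgfr1 stood at 139 CPM in the members and 61.7 CPM in the others. Of 11 measured genes of the Hedgehog target list, 2 had a mean of at least 10 CPM, Gli3 and Osr2, and neither passed 2-fold. Under that level, Gli1 stood at 2.77 CPM in the members and 1.03 CPM in the others, and Ptch1 at 9.25 and 8.50 CPM. None of 11 retinoic acid genes passed.

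Of 9 BMP targets none was higher and 2 were lower, the homeobox factors Msx1 (9.45 CPM in the members, 40.7 CPM in the others) and Msx2 (11.3 CPM in the members, 26.3 CPM in the others). Of 9 genes of pericytes and smooth muscle 2 were higher, among them the actin Acta2 at 241 CPM in the members and 103 CPM in the others.

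The lower side held genes of other lineages. Pf4, a platelet and megakaryocyte chemokine, was represented by 16 UMIs (1.64 CPM) in the members and stood at 103.5 CPM in the others, which included the 14 megakaryocyte-marker barcodes. Pax8 stood at 13.9 CPM in the members and 60.1 CPM in the others, 4.34-fold lower (3.65 to 5.20). The inhibin subunit Inha stood at 12.4 CPM in the members and 56.4 CPM in the others. Tmem114, Htra1, Serpinb6b, Itga6 and Akr1cl were between 2.95-fold and 3.53-fold lower. Of 10 supporting-lineage genes 3 were lower and none higher (list median −0.68), with the activin antagonist Fst at 5.86 CPM in the members and 24.5 CPM in the others, and Irx3 at 6.57 and 17.3 CPM. All 8 keratin and epithelial genes had ratios under 1, yet none passed 2-fold: Krt18 stood at 38.9 CPM in the members and 75.9 CPM in the others, and Krt19 at 210.1 and 324 CPM. Markers of the supporting lineage outside the rule summed to 374 CPM in the members and 655 CPM in the others, mesothelial markers to 396 and 636 CPM, and nephric markers to 48.5 and 96.6 CPM. Of the 7 nephric markers 4 were under 1 CPM in the members, and Pax8 was the only 1 that passed 2-fold. The rule itself placed every barcode with a Upk3b or Foxl2 UMI among the others, so these mesothelial, keratin and supporting-lineage contrasts are not independent of it. The part of these cell types in the lower genes was not tested.

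None of 19 G2/M genes passed 2-fold, and all 19 had ratios above 1 (list median 0.86), with Top2a, the mitotic topoisomerase, at 181 CPM in the members and 97.2 CPM in the others. The cell cycle inhibitor Cdkn1a was 2.22-fold lower, at 45.7 CPM in the members and 101 CPM in the others. A UMI of Top2a or Mki67 was present in 30.2% of the members and 18.2% of the other Induced D6 barcodes, and in 24.1% and 13.7% at equal depth. With every such barcode left out of both sets, 102 genes were higher and 107 lower in the members, and the log2 ratio was 1.57 for Col1a1 and 1.23 for Lum. The part of cycling cells in the members' differences was not tested.

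**Figure D2:**
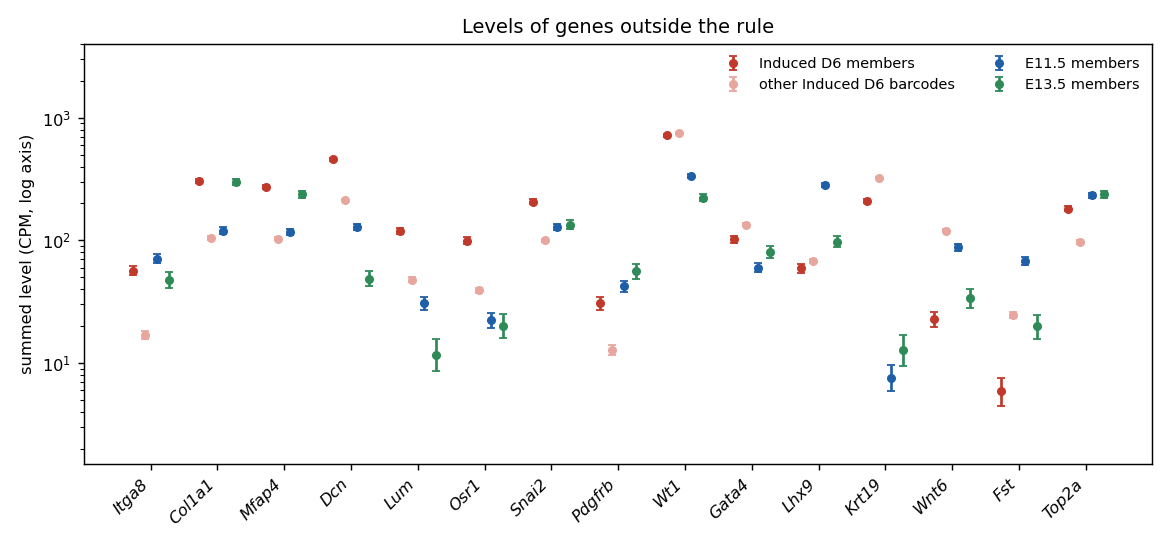
Summed level in CPM (log axis) of 15 genes outside the rule in the Induced D6 members, the other Induced D6 barcodes and the E11.5 and E13.5 members; each point is 1 sum over barcodes with its exact 95% interval for counting error. Col1a1 stood at 304.5 CPM in the Induced D6 members against 104.5 CPM in the other Induced D6 barcodes, and Wnt6 at 22.6 against 119 CPM.

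More genes passed in the same contrast within the gonads. At E11.5 the members exceeded the rest by 2-fold or more in 347 of 8003 genes (4.34%) and fell short by as much in 233 (2.91%); at E13.5 these were 539 (6.64%) and 845 (10.4%) of 8123. Col1a1 stood at 120 CPM in the E11.5 members and 26.6 CPM in the other E11.5 barcodes, and at 300.5 CPM in the E13.5 members and 28.8 CPM in the other E13.5 barcodes, 10.4-fold higher there. Itga8 was 9.34-fold higher at E11.5 and 14.1-fold at E13.5. Of the matrix genes 18 of 20 were higher at E11.5 and 15 of 18 at E13.5, against 10 of 21 in Induced D6; stromal regulators numbered 11 of 15 and 9 of 13, against 3 of 14. Whether these contrasts differed was not tested, and the cells that make up the rest differ between the libraries.

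Most of the genes higher in the Induced D6 members were also higher in the gonad members. Of 82 such genes counted in the E11.5 contrast as well, 66 (80.5%) were higher in the E11.5 members, where they made up 20.8% of 318. Those 318 were drawn from all 7453 genes counted in both contrasts. Of 76 counted at E13.5, 59 (77.6%) were higher there, or 11.8% of the 501 higher among all 7337 genes counted in both. For the lower side the overlap was 36 of 70 (51.4%) at E11.5 and 54 of 66 (81.8%) at E13.5. Over all genes counted in both, 104 of 7453 were lower in the E11.5 members and 473 of 7337 in the E13.5 members. Across 7453 genes, which are not independent of each other, the Induced D6 and E11.5 contrasts had a Pearson r of 0.63, and across 7337 genes the Induced D6 and E13.5 contrasts one of 0.551. The same rule split the barcodes of each library, so these overlaps and correlations are not independent of it.

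**Figure D3:**
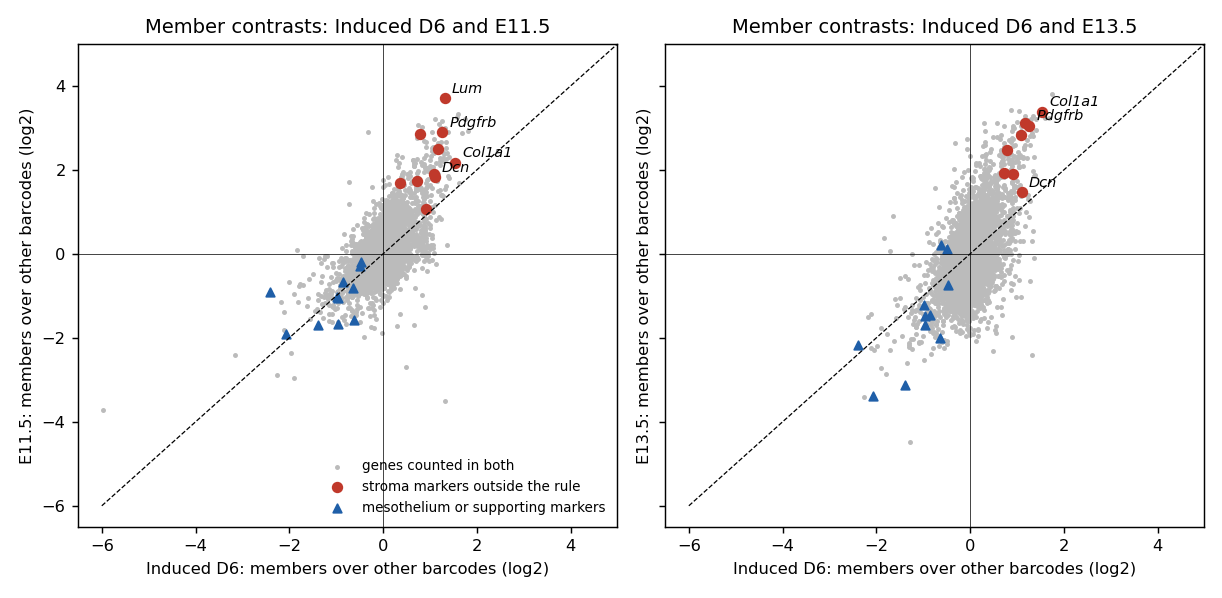
Log2 ratio of members over other barcodes for each gene counted in both libraries, Induced D6 (horizontal) against E11.5 (left, vertical) and E13.5 (right, vertical), with stromal markers as red circles, mesothelial or supporting markers as blue triangles and equal ratios on the dashed line. The stromal markers drawn lie above that line, among them Col1a1, which was 2.91-fold higher in Induced D6 and 10.4-fold higher at E13.5.

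Marker lists describe the label here and are no independent check of it, because they were chosen with earlier results of these data known. The 13 stromal markers outside the rule summed to 2059 CPM in the Induced D6 members and 1008 CPM in the other Induced D6 barcodes. Their sums were 1173 CPM in the E11.5 and 1389 CPM in the E13.5 members. None of the 13 markers was at 0 in the Induced D6 members. Of 10 that were counted, 6 were higher than in the other Induced D6 barcodes and none lower. Mesothelial markers outside the rule summed to 396 CPM in the Induced D6 members, 155 CPM in the E11.5 and 85.4 CPM in the E13.5 members. In the same order, nephric markers summed to 48.5, 12.2 and 10.7 CPM, with 4, 4 and 5 of 7 under 1 CPM. Supporting-lineage markers summed to 374, 443 and 278 CPM in that order. The members were not uniform. Grouped by Leiden clustering of their own transcripts, which is a description of the cells clustered, they fell into 6 groups of 72 to 385 barcodes. The largest group (385 barcodes, median 5018 UMIs, 7.79% with a Top2a or Mki67 UMI) had as its leading genes the angiotensin receptor Agtr2, Lum, the neurofilament gene Nefl, Gdf10 and Dcn: Lum stood at 355 CPM in it and 57.8 CPM in the other members, and Dcn at 1271 and 245.5 CPM. Col1a1 stood at 656 CPM, Osr1 at 253 CPM and Cxcl12 at 139 CPM in it, whereas the gonadal factors Gata4 and Lhx9 were at 21.8 and 7.44 CPM. A group of 334 barcodes was led by Trp53i11, at 88.1 CPM in it and 22.2 CPM in the other members, with Col1a1 at 219.8 CPM, Dcn at 94.1 CPM and Lum at 10.9 CPM. A group of 269 held a Top2a or Mki67 UMI in 94.4% of its barcodes with Col1a1 at 409.9 CPM and Dcn at 577 CPM.

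The remaining 3 groups, 442 barcodes in all, had the lowest Col1a1 levels of the 6 and are called here by their leading genes. The Krt19 and Dppa5a group (263 barcodes) held Krt19 at 761 CPM, against 65.7 CPM in the other members, with Col1a1 at 91.0, Dcn at 163 CPM, Lum at 8.91 and Osr1 at 6.43 CPM. Tcf21 was seen in 97.0% of its barcodes and Pdgfra in 11.4%. The Wnt6 and Pax8 group (107 barcodes) held Wnt6 at 155 CPM, against 8.53 CPM in the other members, and Pax8 at 89.7 CPM against 5.80 CPM, with Col1a1 at 109 CPM, Dcn at 107 CPM and Lum at 20.3 CPM. A cycling group of 72 barcodes with Krt19 at 345 CPM and Col1a1 at 97.3 CPM held Dcn at 125 CPM and 0 UMIs of Lum. Col1a1 was thus higher in each of the other 3 groups (988 barcodes) than in these, while Dcn and Lum were highest in the groups of 385 and 269, and Dcn was lowest of all 6 in the Trp53i11 group.

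Members that held only 1 of the partner genes also differed. The 215 members with Pdgfra and no Tcf21 UMI, set over the 829 with Tcf21 and no Pdgfra UMI, were at least 2-fold higher in 104 of 8244 genes (1.26%) and lower in 124 (1.5%). Lum stood at 227 CPM in the Pdgfra members and 84.9 CPM in the Tcf21 members, and Cxcl12 at 101 and 38.0 CPM. Krt19 stood at 45.2 CPM in the Pdgfra members and 312 CPM in the Tcf21 members, and Dppa5a, named after its values were seen, at 2.34 and 71.3 CPM. Wnt6 ran the other way from Krt19, at 42.8 CPM (32.3 to 55.8) in the Pdgfra members and 23.5 CPM (19.7 to 27.8) in the Tcf21 members, and Pax8 stood at 19.5 CPM (12.6 to 28.8) and 14.9 CPM (11.9 to 18.4). When members were limited to barcodes with a Pdgfra UMI, an alternative chosen after seeing the data, 308 genes were at least 2-fold higher than in the other Induced D6 barcodes and 218 lower, against 109 and 90.

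**Figure D4:**
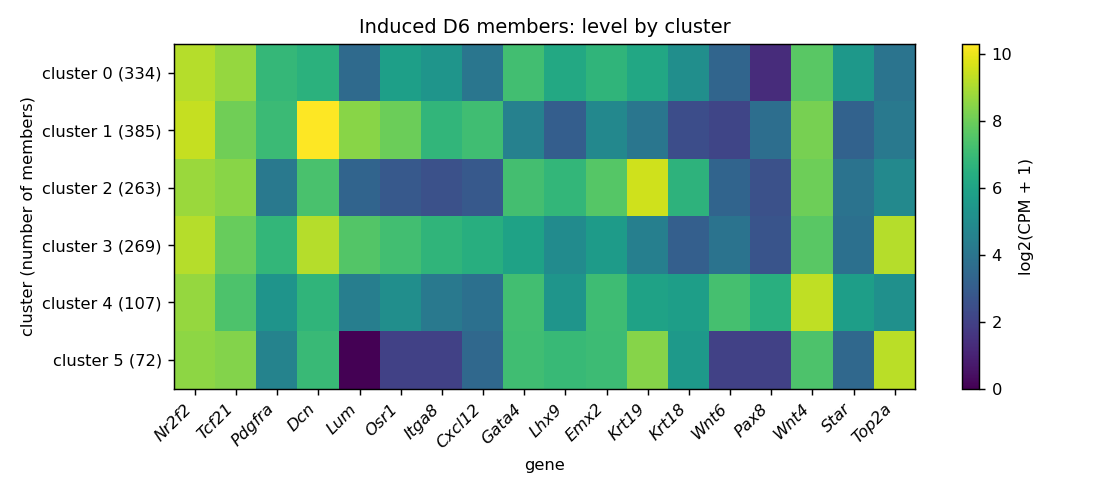
Level of 18 genes, as log2(CPM + 1) on the colour scale, in the 6 clusters of Induced D6 members, with the number of barcodes beside each. Lum stood at 355 CPM in the cluster of 385 barcodes, and Krt19 reached 761 CPM in the cluster of 263.

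Set beside the gonad barcodes chosen by the same rule, the Induced D6 members had more transcript of many glycolysis and hypoxia genes. Among Hox genes with a mean of at least 10 CPM, they had more of the anterior and less of most posterior ones. Over the E11.5 members, 518 of 8198 genes (6.32%) passed 2-fold in the higher and 259 (3.16%) in the lower direction. Over the E13.5 members, 1142 of 8066 (14.2%) were higher and 243 (3.01%) lower, but the median of all genes was 0.35 on the log2 scale. Centred on that median the counts were 549 higher and 509 lower, so the share of higher among the called genes was 51.9% in place of 82.5%. Without barcodes holding at least 3 germ cell markers the uncentred counts were 1192 higher and 202 lower. Across genes the levels of the Induced D6 members had a Pearson r of 0.933 with the E11.5 and 0.918 with the E13.5 members, and 0.981 with the other Induced D6 barcodes of their own library.

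Matrix levels depended on the stage compared. Col1a1 stood at 304.5 CPM in the Induced D6 members, 120 CPM in the E11.5 members and 300.5 CPM in the E13.5 members, a ratio of 2.54 to E11.5 and of 1.01 (0.947 to 1.09) to E13.5. Acta2 behaved alike, at 241 CPM in Induced D6, 66.2 CPM at E11.5 and 226.5 CPM at E13.5. Dcn did not: it stood at 458 CPM in the Induced D6 members, 129 CPM at E11.5 and 48.8 CPM at E13.5, ratios of 3.54 and 9.38. Lum stood at 119 CPM in the Induced D6 members, 30.7 CPM at E11.5 and 11.7 CPM at E13.5. Mgp, the calcification inhibitor matrix Gla protein, stood at 336 CPM in the Induced D6 members, 26.5 CPM at E11.5 and 79.6 CPM at E13.5. In all, 9 of 22 matrix genes were higher than at E11.5 with none lower, and 5 of 21 were higher than at E13.5 with none lower, or 4 higher and 1 lower after centring. Basement membrane genes went the other way in the few that passed: none of 10 was higher and 1 lower than at E11.5, and 3 of 9 were lower than at E13.5 (4 after centring), with Col4a1 at 18.5 CPM in Induced D6, 55.0 CPM at E11.5 and 105 CPM at E13.5.

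Gonadal transcription factors differed in both directions from E11.5. Osr1, from the stromal list, stood at 99.3 CPM in the Induced D6 members, 22.4 CPM at E11.5 and 20.1 CPM at E13.5. Wt1 stood at 719.5 CPM in Induced D6, 332 CPM at E11.5 and 223 CPM at E13.5. Lhx9, a factor of the gonadal ridge, was lower than at E11.5, at 59.2 CPM in Induced D6, 284.5 CPM at E11.5 and 97.4 CPM at E13.5. Of 10 gonadal factors 4 were higher and 1 lower than at E11.5, and 4 were higher than at E13.5 (3 higher and 1 lower after centring). The imprinted growth regulator Dlk1 stood at 958 CPM in Induced D6, 218 CPM at E11.5 and 393 CPM at E13.5, and the imprinted noncoding RNA Meg3 at 2309, 750.0 and 610.2 CPM in the same order. Of 18 imprinted genes 5 were higher and none lower than at E11.5, and 7 were higher than at E13.5 (3 higher and 1 lower after centring). Stromal regulators as a list numbered 2 higher and 1 lower of 15 against E11.5, and 5 higher of 15 against E13.5, which became 3 higher and 3 lower after centring.

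Hox genes, whose position along a cluster mirrors the body level at which they are expressed, separated the induced from the gonad members in both directions. Of 13 measured genes of the anterior list, 7 had a mean of at least 10 CPM in each comparison. All 7 were at least 2-fold higher in Induced D6 than at E11.5 (list median 2.32) and than at E13.5 (list median 2.70), also after centring. Hoxd3, under that level, ran the other way, at 0.822 CPM in Induced D6, 1.81 CPM at E11.5 and 1.27 CPM at E13.5. Hoxc4 stood at 95.9 CPM in the Induced D6 members, 17.4 CPM at E11.5 and 16.8 CPM at E13.5. Hoxa5 stood at 102 CPM in Induced D6, 21.96 CPM at E11.5 and 17.0 CPM at E13.5, and Hoxb2 at 38.1, 5.32 and 5.85 CPM in that order.

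Among posterior list genes with a mean of at least 10 CPM, 5 of 5 were lower than at E11.5 (list median −2.27). At that level 2 of 3 were lower than at E13.5. Hoxd10 had 0 UMIs in 1430 Induced D6 members, which allows a share of up to 0.210% (3 barcodes), against 32.2 CPM at E11.5 and 34.1 CPM at E13.5, at least 104-fold and 111-fold lower at a floor of 3 counts over the sum. Hoxc10 had 2 UMIs in Induced D6 (0.205 CPM) against 20.3 CPM at E11.5, a ratio of 98.6 to 1 with a counting interval of 26.9 to 821. Hoxd9 stood at 35.9 CPM in Induced D6, 118 CPM at E11.5 and 116 CPM at E13.5. Hoxb9 was higher than at both stages, at 12.3 CPM in Induced D6, 1.92 CPM at E11.5 and 3.31 CPM at E13.5. Summed over all Hox genes, groups 9 to 13 made up 8.26% of Hox CPM in the Induced D6 members, 45.5% in the E11.5 and 52.7% in the E13.5 members. The pattern was not particular to the members within their library: the other Induced D6 barcodes held Hoxd10 at 4 UMIs, Hoxd9 at 39.5 CPM and Hoxc4 at 99.2 CPM. Hoxd10 lies on the plus strand at chr2:74691924-74695105 and Hoxc10 on the plus strand at chr15:102966796-102971893.

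**Figure D5:**
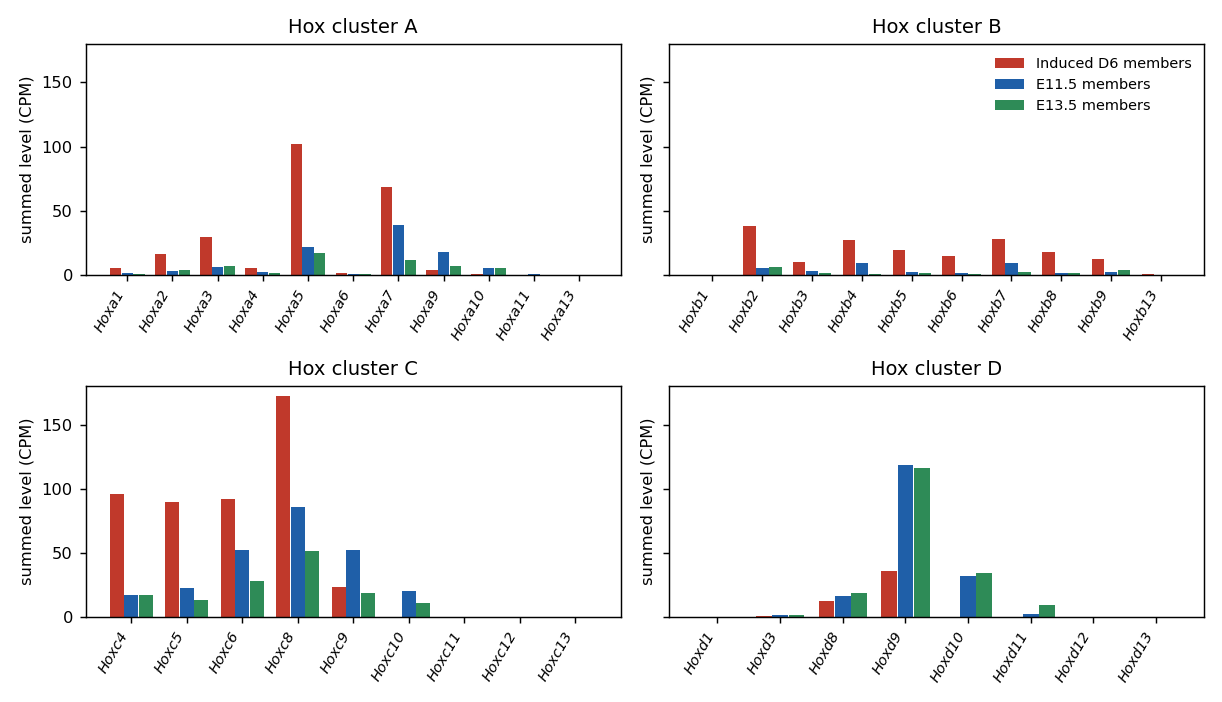
Summed level in CPM of each Hox gene in the Induced D6, E11.5 and E13.5 members, with 1 panel per cluster and genes in order of paralog group; bars start at 0. The Induced D6 bar is the tallest of the 3 at Hoxc4, Hoxa5 and Hoxb2, and Hoxd10 had 0 UMIs in Induced D6.

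Glycolytic and hypoxia-responsive genes were higher in the Induced D6 members: 8 of 17 against E11.5 (list median 0.98), and 17 of 17 against E13.5 (list median 2.11), or 15 of 17 after centring. Bnip3, a mitophagy receptor, stood at 261 CPM in the Induced D6 members, 19.8 CPM at E11.5 and 16.8 CPM at E13.5, ratios of 13.2 (11.3 to 15.4) and 15.6 (12.2 to 20.2). The lactate exporter Slc16a3 stood at 160.3 CPM in Induced D6, 22.8 CPM at E11.5 and 9.92 CPM at E13.5. The glucose transporter Slc2a1 stood at 121 CPM in Induced D6, 25.6 CPM at E11.5 and 7.63 CPM at E13.5. P4ha2, a collagen prolyl hydroxylase outside that list, stood at 88.3, 11.8 and 7.37 CPM in the same order. The list's difference was one between libraries: within Induced D6 none of the 17 genes separated the members from the rest (list median −0.06).

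The stretch of 150 bases upstream of the RefSeq start site of each of these 4 genes (RefSeq, GRCm38.p6) is shown because these genes had some of the widest ratios between the induced and gonad members; they were picked with their matches known. Capitals mark ACGTG on either strand (CACGT when read on the other), a form of the core of the hypoxia response element. Other forms of that core are not marked. Bnip3 is at chr7:138909507-138909656 on the minus strand, with overlapping matches that form CACGTG. Slc2a1 is at chr4:119108595-119108744 on the plus strand with a match 36 bases upstream of the start. Slc16a3 is at chr11:120948917-120949066 on the plus strand with matches 27 and 14 bases upstream, and P4ha2 at chr11:54100774-54100923 on the plus strand with a match 78 bases upstream.
Bnip3: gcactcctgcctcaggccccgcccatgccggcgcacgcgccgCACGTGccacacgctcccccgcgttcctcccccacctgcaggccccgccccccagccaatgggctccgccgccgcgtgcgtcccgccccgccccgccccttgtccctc
Slc2a1: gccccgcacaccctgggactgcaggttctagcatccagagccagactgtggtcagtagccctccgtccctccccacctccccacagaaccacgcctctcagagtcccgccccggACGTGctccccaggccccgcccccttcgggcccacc
Slc16a3: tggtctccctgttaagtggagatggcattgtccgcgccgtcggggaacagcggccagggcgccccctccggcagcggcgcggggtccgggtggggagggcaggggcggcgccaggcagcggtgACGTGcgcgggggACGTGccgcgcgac
P4ha2: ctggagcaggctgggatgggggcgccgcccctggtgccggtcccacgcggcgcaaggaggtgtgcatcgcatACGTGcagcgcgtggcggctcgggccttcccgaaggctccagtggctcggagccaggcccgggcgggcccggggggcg
Searched over RefSeq windows from 250 bases before to 50 after the start, ACGTG on either strand occurred in 14 of the 20 glycolysis and hypoxia genes with a sequence (70%) and in 21.8% of 27025 genes. By window, the shares were 15 of 28 (53.6%) and 19.6% of 32851. A second motif, CAGCTG, which reads the same on both strands, occurred in 6 of those 20 genes (30%) and in 18.3% of all genes. The list was named for glycolysis and hypoxia, so these shares describe the list and not the members. A match describes the letters of the window, and whether a factor bound there was not measured.

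Signal-responsive genes differed by pathway. Retinoic acid genes, a list of targets and metabolic enzymes, were higher in 5 of 9 against E11.5 and 4 of 8 against E13.5 (4 and 3 after centring). Rarb, a retinoic acid receptor induced by its ligand, stood at 37.0 CPM in the Induced D6 members, 7.24 CPM at E11.5 and 8.39 CPM at E13.5, ratios of 5.11 (3.90 to 6.77) and 4.41. Dhrs3, a retinaldehyde reductase, stood at 162 CPM in Induced D6, 30.8 CPM at E11.5 and 22.9 CPM at E13.5. Cyp26b1, the retinoic acid-degrading enzyme, stood at 14.48, 6.91 and 1.02 CPM in the same order. BMP targets were higher in 4 of 8 and lower in 1 against E11.5, and higher in 4 of 7 against E13.5, or 1 of 7 after centring. The BMP-induced helix-loop-helix inhibitor Id1 stood at 523 CPM in Induced D6, 123 CPM at E11.5 and 197 CPM at E13.5. Wnt pathway genes were higher in 3 of 14 and lower in 1 against E11.5, and higher in 7 and lower in 1 against E13.5 (4 and 1 after centring). The Wnt inhibitor Dkk1 stood at 51.1 CPM in Induced D6, 12.9 CPM at E11.5 and 4.07 CPM at E13.5, whereas Wnt6 stood at 22.6, 87.6 and 33.6 CPM. Sfrp1 was similar in all 3, at 345, 286 and 311 CPM. Within the Induced D6 members Dkk1 was uneven, at 10.1 CPM in the Pdgfra members without Tcf21 and 72.1 CPM in the Tcf21 members without Pdgfra.

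Immediate early genes, which dissociation can also induce, moved with the stage compared: 9 of 14 were higher than at E11.5 and none lower, while 1 of 15 was higher and 5 lower than at E13.5. Fos stood at 839.7 CPM in the Induced D6 members, 398.7 CPM at E11.5 and 831.9 CPM at E13.5. The part of dissociation in these values was not tested. None of 19 G2/M genes passed 2-fold in either comparison, with list medians of −0.34 against E11.5 and −0.12 against E13.5. The share of members with a Top2a or Mki67 UMI at equal depth was 24.1% in Induced D6, 32.1% at E11.5 and 34.1% at E13.5.

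The widest single-gene differences lay outside the lists in part. Il11ra1, a subunit of the interleukin 11 receptor, stood at 245 CPM in the Induced D6 members, 6.68 CPM at E11.5 and 18.8 CPM at E13.5, 36.7-fold (28.3 to 48.3) and 13.01-fold higher. Krt19 stood at 210.1 CPM in Induced D6, 7.58 CPM at E11.5 and 12.7 CPM at E13.5, and was concentrated in the Krt19 and Dppa5a group described above. Bhlhe40, a hypoxia- and clock-linked repressor, stood at 66.6, 3.06 and 5.34 CPM in the same order. On the lower side, Calb1 (a calcium-binding protein) stood at 3.60 CPM in Induced D6, 75.8 CPM at E11.5 and 10.4 CPM at E13.5. Cpa1 stood at 5.96, 114 and 27.5 CPM, and Fst at 5.86, 67.9 and 19.8 CPM.

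Xist, the RNA of the inactive X chromosome, stood at 65.3 CPM in the Induced D6 members, 1079 CPM at E11.5 and 2218 CPM at E13.5. A Xist UMI was present in 4.83% of the Induced D6 members and 6.04% of the other Induced D6 barcodes, against 99.2% of the E11.5 and 99.6% of the E13.5 members. The Y-linked genes Ddx3y, Eif2s3y, Kdm5d and Uty had 0 UMIs in all 3 sets of members, and the sex of the ES line is not given in the sources used here. Within the Induced D6 members Xist was uneven, at 160 CPM in the Pdgfra members without Tcf21 and 46.7 CPM in the Tcf21 members without Pdgfra, a ratio of 3.42. Dazl, a germ cell RNA-binding protein, stood at 0.205 CPM in the Induced D6 members, 9.74 CPM at E11.5 and 75.5 CPM at E13.5, where germ-marker barcodes were present as given above.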

How the data were processed

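Single-cell RNA was measured in 6 libraries, 1 per group. Per the file headers and the submitters' processing notes, reads were counted with Cell Ranger 3.0.2 on mm10, and what the authors deposited is raw, unscaled UMI counts for every gene in every barcode. How cells were called was not given in the sources used here. Members and gene lists were chosen with earlier results of these data known. UMI counts were summed over barcodes, scaled to CPM and compared as ratios with exact conditional binomial 95% intervals. Shares carry Clopper-Pearson intervals. Genes with a mean of at least 10 CPM were counted as higher or lower at 2-fold, without the 5 rule genes, and a sum at 0 was set to a floor of 3 counts. Genes named were the 10 widest ratios each way at 50 CPM or more, the 2 widest of each list and a set of key genes, unless said otherwise. Slit2, Sfrp1, Hoxa5, Fos, the Y-linked genes and the leading genes of the clusters were named outside this choice. Mitochondrial, ribosomal and haemoglobin genes were not named, and a few others are not reported here. Doublets were marked with Scrublet in scanpy 1.11.5 (Python 3.11.15) and removed only in an alternative. Counting and intervals were tested on simulated data. Libraries held 37606947 to 52146419 UMIs, and precision is limited by counting alone in each interval. Gene positions matched 30934 of 31053 identifiers. Alternatives covered filters, the rule's thresholds, depth, cycling cells, doublets and centring.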

Additional observations from a re-analysis of the deposited data

Results flagged for a closer look

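In Dppa5a, a pluripotency-linked gene that was named after its values were seen, the members stood above the other barcodes in Induced D6 (42.7 against 17.2 CPM, log2 ratio 1.31) and below them at E11.5 (51.4 against 581 CPM, −3.50) and at E13.5 (63.3 against 334 CPM, −2.40). Of the Induced D6 members' UMIs of this gene, 405 came from the Krt19 and Dppa5a group of 263 barcodes (200.4 CPM, against 1.43 CPM in the other members). The histone chaperone gene Asf1b, likewise named after its values were seen, was higher in the Induced D6 members (14.1 against 6.62 CPM, 1.09) and lower in the E13.5 members (22.9 against 47.0 CPM, −1.04). Both genes drew attention because the contrast ran in opposite directions, and these differences were not tested. Germ-marker barcodes made up 301 of the kept E11.5 and 1526 of the kept E13.5 barcodes and fall mostly in the other barcodes there. Their part in these values was not tested.

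In the libraries outside the comparisons, the rule was met by 7.16% of kept barcodes at E10.5, 14.2% at E12.5 and 11.51% at E14.5. At 3000 UMIs per barcode these shares were 1.37, 4.85 and 5.15%.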

How the results depend on the processing

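No paired analysis was possible because each group is 1 library with no replicate, so no replicate could be left out either. Of 109 alternative values, 65 stayed within the main value's interval or 1.5 times its count and 44 moved. Shares of barcodes meeting the rule are given for Induced D6, E11.5 and E13.5 in turn, and counts as higher then lower. The main shares were 19.02, 24.3 and 10.1%. They were 28.06, 29.19 and 13.56% at 1 Nr2f2 UMI, 12.01, 18.82 and 7.162% at 3, and 27.41, 34.01 and 14.24% without the Upk3b and Foxl2 exclusion. Thinning to 3000 UMIs gave 7.861, 6.978 and 4.119%. At 1000 genes and 5% mitochondrial UMIs the Induced D6 share was 20.15% and the E13.5 share 12.76%, and without cycling barcodes the Induced D6 share was 16.7%. Members limited to Pdgfra UMIs, chosen after seeing the data, gave 7.993, 16.1 and 5.979%. Leaving out germ-marker barcodes, also chosen after seeing the data, gave 27.04% at E11.5 and 14.44% at E13.5.

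For the members against the other Induced D6 barcodes, the main counts were 109 and 90. They were 1206 and 1046 with no level filter, 28 and 24 at 50 CPM, 267 and 167 against barcodes with 0 Nr2f2 UMIs, 263 and 174 within the members' interquartile range of depth, and 308 and 218 for members with Pdgfra UMIs; more genes were lower than higher after thinning (133 and 151), without the exclusion (98 and 105) and without cycling barcodes (102 and 107). Against E11.5, the main 518 and 259 became 1754 and 1608, 139 and 61, and 779 and 536 with no filter, at 50 CPM and thinned. Against E13.5, the main 1142 and 243 became 2483 and 1428 with no filter and 331 and 51 at 50 CPM; thinning gave 365 lower and centring gave 549 and 509. The cause of these moves was not tested.

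Of 487 alternative values for the 43 single-gene ratios past 2-fold, 478 stayed past it. The other 9 kept their direction, on the log2 scale: Snai2 (0.69 to 0.99 in 4 settings), Dcn (0.93 at 3 Nr2f2 UMIs, 0.73 without the exclusion), Lum (0.61) and Osr1 (0.62) over the other Induced D6 barcodes, and Hoxd9 against E13.5 (−0.81), the last 3 without the exclusion. Limits are 1 library per group, strain and culture that go with it, a depth at which Pdgfra is missed in many barcodes, and free RNA.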
